A study of Mus musculus with 12 samples.

Results

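Homeostatic astrocyte genes were examined in injured spinal cord of male ApoE4 mice. The set is a list of 10 named genes, and its members are the rows of the authors' deposited full gene table that carry those symbols. All 10 were listed above the lesion among 13645 gene symbols, and 9 were listed below it among 12337, where GJB6 had no row. All 4 groups were mice expressing human ApoE4 that received a motor-incomplete contusion at thoracic level 9 at 4 months of age, and tissue was taken at 14 days post-injury (dpi). They were ApoE4 synj1+/+ above the lesion, ApoE4 synj1+/- above the lesion, ApoE4 synj1+/+ below the lesion and ApoE4 synj1+/- below the lesion, where synj1+/- means that 1 of the synj1 alleles is inactive. They are called the +/+ and the +/- labelled group at each site. The labels give 3 libraries to each group, 12 in all. Whether 1 mouse gave both a segment above and a segment below is not stated in the labels. Sham-operated mice and ApoE3 mice were not analysed here.

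Astrocytes keep the fluid around neurons stable. They take up glutamate through sodium-coupled transporters and turn it into glutamine, they buffer potassium through inwardly rectifying channels, they move water at endfeet around blood vessels, and they are joined into a network by gap junctions. After a spinal cord injury, astrocytes near the lesion become reactive, a state marked by GFAP and other intermediate filament genes, and the genes of the resting functions can then be read beside the reactive ones. The comparison addressed here is between genotypes at each site, since the study asked how lowering synj1 acts on injured ApoE4 cord.

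On GRCm38.p6, RefSeq places Slc1a2 at chr2:102658239-102790784, Slc1a3 at chr15:8634124-8710807, Gja1 at chr10:56377300-56390419 and Gjb6 at chr14:57123301-57133611. Kcnj10 lies at chr1:172341210-172374085, Glul at chr1:153899929-153909723, Aldh1l1 at chr6:90550768-90599171, Aldoc at chr11:78323073-78327781 and Fgfr3 at chr5:33721724-33737068. Each value belongs to a whole gene, not to an exon or a transcript.

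The deposited table holds 1 value per gene and group, which combines the 3 libraries of that group. No spread between libraries can be computed from it, so no SD, standard error or p-value is given, and every difference stated here is a difference between the authors' group values. The value has no unit in the file, its lowest entry is 1, and it was read as an expression level with 1 added. Across all genes the value was higher where RefSeq lists more transcript models for a gene. Above the lesion, in the +/+ labelled group, the median value was 11.5 for the 3505 genes with 1 model, 23.3 for the 2235 genes with 2 models, 43.3 for the 1273 genes with 4 models and 84.9 for the 472 genes with 8 models. Spearman's rho between the value and the number of models was 0.605 across 13529 genes above the lesion and 0.580 across 12242 below, and genes are not independent replicates. The ratio between genotypes showed no such relation, with rho of -0.018 above and 0.043 below. AQP4 has 9 models, SLC1A2 has 8, FGFR3 has 7 and GJB6 has 5, whereas SLC1A3, GJA1 and GLUL have 1 each. Levels were therefore compared between groups within a gene and not between genes.

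**Figure D1:**
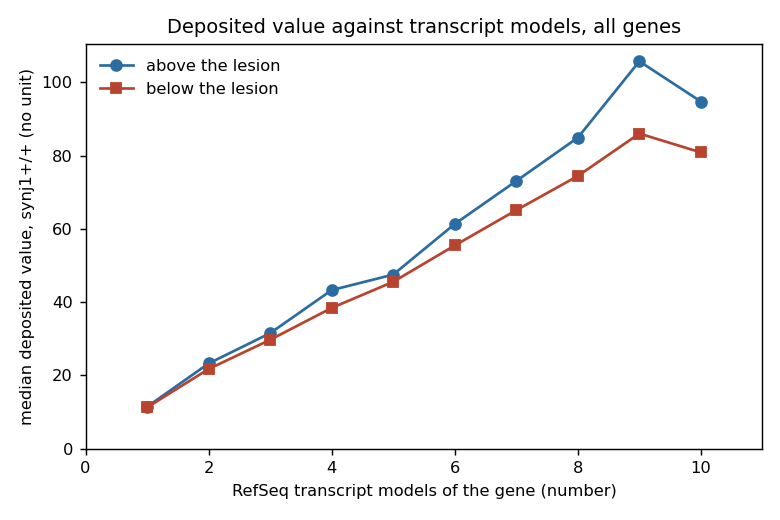
Median deposited value in the +/+ labelled group (no unit, vertical axis) of all genes with the same number of RefSeq transcript models (horizontal axis), above and below the lesion. The median climbs from 11.5 at 1 model to 84.9 at 8 models above the lesion. Why it climbs was not tested, and levels were not compared between genes.

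SYNJ1, the gene that the genotype lowers, ran against the labels at both sites. Its value above the lesion was 1905 in the +/+ labelled group and 2404 in the +/- labelled group. Below the lesion it was 1847 and 2593. Each direction therefore holds for the groups as labelled, the +/- group against the +/+ group. Genes that mark position along the cord were present. All 8 HOX position genes looked for were listed at both sites, and 5 of 6 forebrain markers were not listed, the other being NEUROD6 at a value of 2.11 and 2.61 above the lesion.

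Above the lesion, all 10 homeostatic astrocyte genes had a lower value in the +/- labelled group. Of all genes listed there, 51.0% had a lower value. The log2 ratio of the members, the +/- labelled group over the +/+ labelled group, ran from -0.29 for AQP4 to -0.03 for ALDOC, with a median of -0.18, where the median of all genes was -0.0039. By a fold of at least 1.2, 2 of 10 members were lower and 0 were higher, where 10.5% of all genes were lower and 6.63% were higher by that fold. KCNJ10 and ALDH1L1 lay just short of it, with folds of 1.1992 and 1.1999. Below the lesion, 8 of 9 members had a lower value, where 47.2% of all genes did, and the median log2 ratio was -0.08 beside 0.0144 for all genes. Only AQP4 passed the fold of 1.2 there, 1 of 9 members, where 14.9% of all genes were lower by that fold, and 0 members were higher, where 12.6% were. Every member had a level of at least 10 in each group, so a filter on level could change only the shares of all genes. With a level of at least 1 required in both groups, 2 members were lower and 0 higher above the lesion (10.1% and 6.48% of genes). Below it 1 was lower and 0 higher (14.5% and 12.5%). With a level of at least 10 the members' counts were 2 and 0 above (8.05% and 5.0% of genes) and 1 and 0 below (11.6% and 11.4%). At a fold of 1.1, 7 members were lower and 0 higher above (23.0% and 19.1% of all genes), and 3 were lower and 0 higher below (26.1% and 27.5%). At a fold of 1.5, 0 members were lower or higher at either site, where 1.93% of all genes were lower and 0.791% higher above, and 4.38% lower and 1.16% higher below. Without replicate values these counts describe the libraries and carry no error. In bulk tissue, fewer astrocytes and less RNA per astrocyte cannot be told apart.

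**Figure D2:**
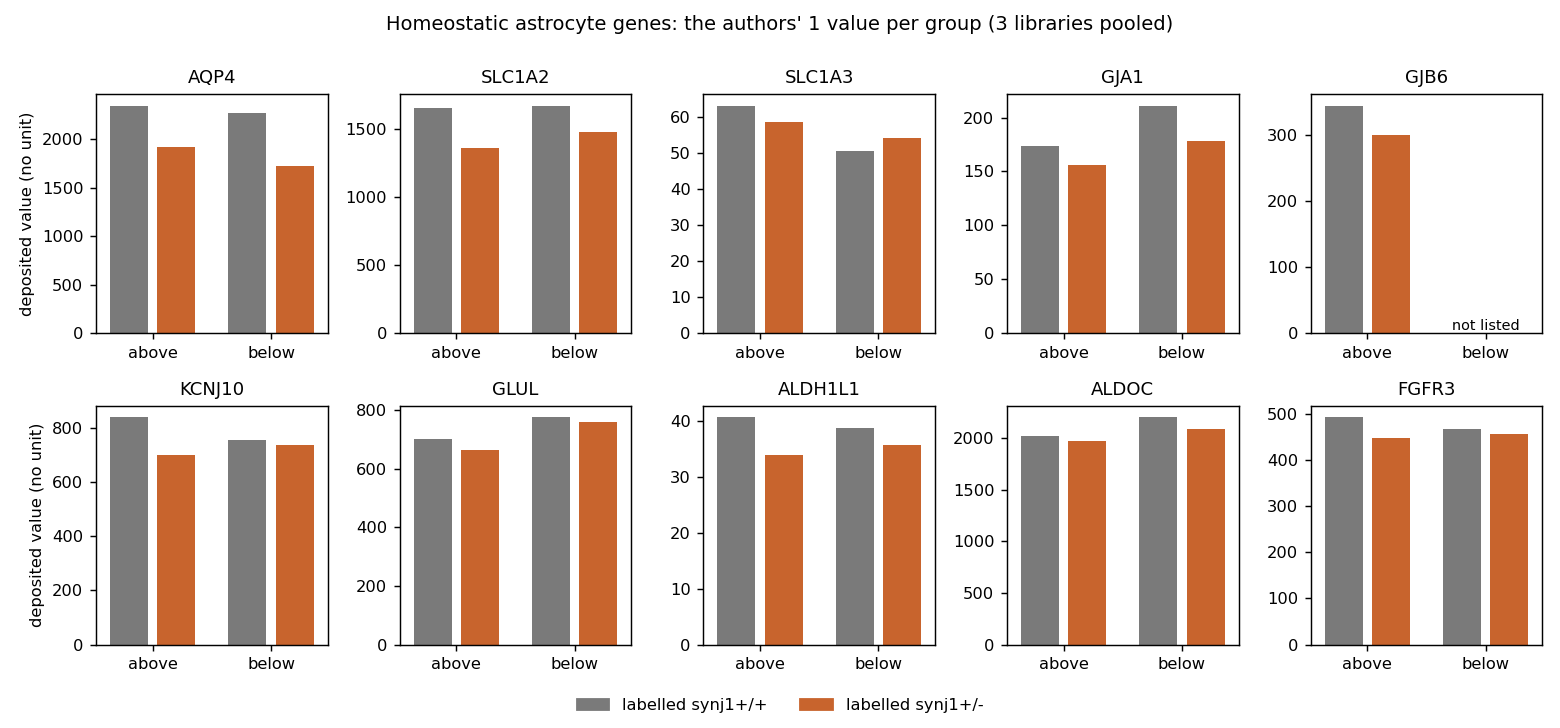
Deposited value (no unit, vertical axis, each panel from 0) of the 10 members in the 4 groups, above and below the lesion, with the +/+ labelled group in grey and the +/- labelled group in orange. Each bar is 1 pooled value without an error, and in every panel except SLC1A3 below the lesion the orange bar is the shorter of its pair.

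AQP4, the water channel of astrocyte endfeet, had the lowest ratio at both sites. Above the lesion its value was 2344 in the +/+ labelled group and 1917 in the +/- labelled group, a 1.22-fold difference. Below the lesion the values were 2273 and 1725, a 1.32-fold difference and a log2 ratio of -0.40. Of all genes, 9.01% above the lesion and 8.48% below had a lower ratio than AQP4. Below against above, the log2 difference was -0.05 in the +/+ labelled groups and -0.15 in the +/- labelled groups.

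The glutamate transporters differed in direction below the lesion, where neither passed the fold of 1.2. SLC1A2 encodes GLT-1, the main glutamate transporter of mature astrocytes, and SLC1A3 encodes GLAST, its relative. The value of SLC1A2 above the lesion was 1652 in the +/+ labelled group and 1360 in the +/- labelled group, with a log2 ratio of -0.28. Below the lesion it was 1669 and 1475, with a log2 ratio of -0.18. SLC1A2 was thus lower at both sites in the +/- labelled group, and passed the fold of 1.2 above the lesion. The value of SLC1A3 was 63.3 and 58.8 above the lesion, with a log2 ratio of -0.10, and 50.6 and 54.4 below it, with a log2 ratio of 0.10. It was the 1 member with a higher value in the +/- labelled group at either site, and 66.5% of all genes below the lesion had a lower ratio. The level of SLC1A2 over that of SLC1A3, which does not depend on the scaling between groups, was 26.5 and 23.5 above the lesion and 33.6 and 27.6 below it, in the +/+ labelled group and the +/- labelled group. This ratio was lower in the +/- labelled group at both sites.

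The sequences before the starts of these transporters are given because SLC1A2 and SLC1A3 differed in direction below the lesion, though short of the fold of 1.2. That of GJA1 is given because it held the 1 AP-1 match among the members. They come from RefSeq on GRCm38.p6 and hold the 250 bases before a start. The Slc1a2 window is chr2:102706188-102706437 on the plus strand, before a start that lies inside the span of the gene. The Slc1a3 window is chr15:8710808-8711057 on the minus strand, and the Gja1 window is chr10:56377050-56377299 on the plus strand. Each is written 5′ to 3′, and capitals mark a match to any of the motifs listed after them.
Slc1a2: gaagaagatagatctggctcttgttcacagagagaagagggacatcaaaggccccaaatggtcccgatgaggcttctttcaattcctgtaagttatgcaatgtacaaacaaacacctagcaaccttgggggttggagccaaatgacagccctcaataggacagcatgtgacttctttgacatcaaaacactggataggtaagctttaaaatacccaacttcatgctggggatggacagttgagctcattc
Slc1a3: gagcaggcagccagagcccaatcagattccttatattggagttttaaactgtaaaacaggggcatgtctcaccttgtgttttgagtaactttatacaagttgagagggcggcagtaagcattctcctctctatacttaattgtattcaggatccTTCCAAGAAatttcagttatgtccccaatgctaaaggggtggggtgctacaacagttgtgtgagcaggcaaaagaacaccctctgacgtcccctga
Gja1: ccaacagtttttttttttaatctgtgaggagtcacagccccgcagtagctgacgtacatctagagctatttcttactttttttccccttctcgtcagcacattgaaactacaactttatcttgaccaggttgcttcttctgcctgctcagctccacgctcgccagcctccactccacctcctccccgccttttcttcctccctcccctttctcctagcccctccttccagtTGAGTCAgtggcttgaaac

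Motifs were searched on both strands in 11 such windows of 9 members, and AQP4 was left out. An NFI motif (TTGGCA) was in 1 member window, of Aldoc, and in 12.3% of all 32851 windows. A SOX core (ACAAAG or ACAATG) was in 0 member windows and in 25.2% of all. A STAT motif (TTCNNNGAA) was in 2 member windows, of Slc1a3 and Aldoc, and in 7.02% of all, and an AP-1 motif (TGANTCA) was in 1, of Gja1, and in 6.75% of all. These are matches of letters only, and nothing is read from their counts in 11 windows. No base was in more than 1 match (0 bases in every window), and the Slc1a2 window held no match. That window lies inside the gene, and the bases before the gene's outermost start at chr2:102658239 were not searched.

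Of the gap junction genes, GJA1 encodes connexin 43 and GJB6 encodes connexin 30, the connexins of astrocytes. The value of GJA1 above the lesion was 174 in the +/+ labelled group and 156 in the +/- labelled group, with a log2 ratio of -0.16. Below the lesion it was 211 and 178, with a log2 ratio of -0.24 that stayed short of the fold of 1.2. GJA1 was thus lower at both sites, and with AQP4 and ALDOC it was among the 3 members whose ratio was the lower one below the lesion. The value of GJB6 above the lesion was 344 and 299, with a log2 ratio of -0.20. The level of GJA1 over that of GJB6 there was 0.503 in the +/+ labelled group and 0.519 in the +/- labelled group.

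KCNJ10 encodes Kir4.1, the potassium channel through which astrocytes take up potassium. Its value above the lesion was 842 in the +/+ labelled group and 702 in the +/- labelled group, with a log2 ratio of -0.26. Below the lesion it was 756 and 740, with a log2 ratio of -0.03. The fold above the lesion was 1.1992, short of 1.2, and 10.6% of all genes had a lower ratio there, where 41.5% did below the lesion. The log2 ratio of KCNJ10 below exceeded that above by 0.23, the widest gap between sites among the members. This gap between pooled values was not tested. The level of KCNJ10 over that of KCNJ16, which encodes its channel partner Kir5.1, was 7.08 and 6.10 above the lesion and 6.03 and 6.07 below it.

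Among the metabolic genes, GLUL encodes glutamine synthetase, which makes glutamine from the glutamate that astrocytes take up. Its value was 699.7 in the +/+ labelled group and 663 in the +/- labelled group above the lesion, and 777 and 758 below it, with log2 ratios of -0.08 and -0.04. ALDOC, the brain form of the glycolytic enzyme aldolase, had values of 2023 and 1978 above and 2208 and 2092 below, with log2 ratios of -0.03 and -0.08. These enzymes had the ratios nearest to 0 above the lesion. ALDH1L1, a folate enzyme used to mark astrocytes, had values of 40.8 and 34.0 above the lesion, with a log2 ratio of -0.26, and 38.8 and 35.8 below it, with a log2 ratio of -0.12. Its ratio was nearer to those of AQP4 and SLC1A2 than to those of the other enzymes above the lesion.

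FGFR3, a fibroblast growth factor receptor of astrocytes and their precursors, had values of 494 and 449 above the lesion, with a log2 ratio of -0.14, and 467 and 457 below it, with a log2 ratio of -0.03. RefSeq lists a pseudogene, Fgfr3-ps, so reads of the gene and of this copy may not be fully separated.

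**Figure D3:**
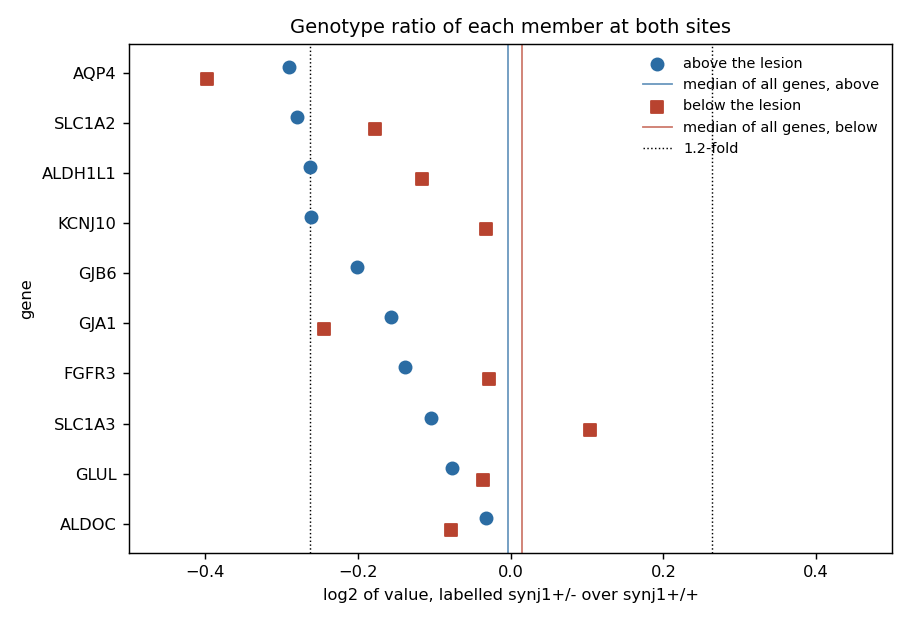
Log2 ratio of the deposited value, the +/- labelled group over the +/+ labelled group (horizontal axis), for each member (vertical axis), with circles above and squares below the lesion, dotted lines at the fold of 1.2 and solid lines at the median of all genes of each site. All 10 circles lie left of 0, from -0.29 to -0.03, while the squares run from -0.40 for AQP4 to 0.10 for SLC1A3.

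The members spanned 0.257 log2 units above the lesion and 0.502 below it. Over the 9 members listed at both sites, the log2 ratio below minus that above was positive for 6 and negative for 3, with a median of 0.10, where over all 12025 genes listed at both sites it was positive for 53.9% and had a median of 0.02. SLC1A3, KCNJ10 and ALDH1L1 were nearer to 0 or above it below the lesion by 0.21, 0.23 and 0.15 log2 units. AQP4 was lower there by a log2 difference of -0.11. A test of these differences could not be run on pooled values.

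Between the sites, the values within a genotype can be set side by side, although the reads of each site were thinned to a number of their own and the sites may have been scaled apart. In the +/+ labelled groups, the log2 ratio of the value below over that above had a median of -0.05 over the 9 members, from -0.32 for SLC1A3 to 0.28 for GJA1. These were the 2 members past the fold of 1.2, 1 lower and 1 higher below the lesion, where 11.5% of all genes were lower and 13.7% higher. In the +/- labelled groups, the median was 0.07, from -0.15 for AQP4 to 0.19, and 0 members passed that fold in either direction, where 6.93% of all genes were lower and 9.91% higher.

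Other genes of astrocyte function were read from 5 lists, and 68 of their genes were listed above the lesion and 63 below. Above the lesion 9 were lower by the fold of 1.2 and 2 higher, beside 10.5% and 6.63% of all genes, with a median log2 ratio of -0.09. Below the lesion 9 were lower and 4 higher, beside 14.9% and 12.6% of all genes, with a median of -0.07. The counts of lower genes were near these background shares, so nothing is read from them. Of the 5 lists together, 48 of 68 genes had a lower value by any amount above the lesion and 38 of 63 below, where 51.0% and 47.2% of all genes did. Among the genes of water movement and endfoot anchoring, 8 of 9 had a lower value above the lesion, where 51.0% of all genes did. Below the lesion, 6 of 9 genes of that list had a lower value, where 47.2% of all genes did. The cation channel gene TRPV4 passed the fold there at low values of 4.69 and 3.31.

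Of all genes, 10.5% were lower and 6.63% higher by the fold of 1.2 above the lesion, and 14.9% and 12.6% below. Of the genes of ion and transmitter transport, 0 of 14 passed that fold above the lesion in either direction, with a median log2 ratio of -0.03. Below the lesion 1 of 13 was higher, GRM5, a metabotropic glutamate receptor gene, at 48.0 and 57.9, and the median was 0.05. KCNJ10 and SLC1A2 thus had lower ratios above the lesion than the median of the genes of like function. In this transport list, 10 of 14 genes had a lower value by any amount above the lesion and 4 of 13 below. The shares of all genes were 51.0% and 47.2%. Of the other connexins and pannexins, 0 of 8 passed the fold above the lesion. Below it 2 of 8 were lower, GJB2 at 11.3 and 4.89 among them, and 2 were higher, PANX2 at 187 and 241 and GJD2 at 17.2 and 23.9. GJB2 encodes connexin 26, which meninges also make, and GJD2 encodes connexin 36 of neurons.

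Of 13 metabolic genes listed at each site, 3 were lower by the fold of 1.2 above the lesion, namely PDK4, PRODH and GPT2. Below the lesion 2 were lower, namely PDK4 and GPT2, which is near the share of all genes, 14.9%. The share lower above the lesion was 10.5%. None of the metabolic genes was higher by that fold, where 6.63% of all genes were above the lesion and 12.6% below. GPT2, a mitochondrial alanine aminotransferase, had values of 72.6 and 58.4 above and 74.8 and 59.3 below. PRODH, which breaks down proline, had values of 145 and 108 above the lesion, with a log2 ratio of -0.43. Of the genes of astrocyte identity and signalling, 5 of 24 were lower by that fold and 2 higher above the lesion, and 4 of 20 were lower and 1 higher below, where the shares of all genes were 10.5% and 6.63% above and 14.9% and 12.6% below. AGT, angiotensinogen, had values of 428 and 339 above and 464 and 358 below. ATP13A4, a cation-transporting ATPase gene, had values of 80.9 and 58.4 above. HES5, a target of Notch signalling, was higher in the +/- labelled group at both sites, at 8.71 and 16.9 above and 9.67 and 13.8 below.

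**Figure D4:**
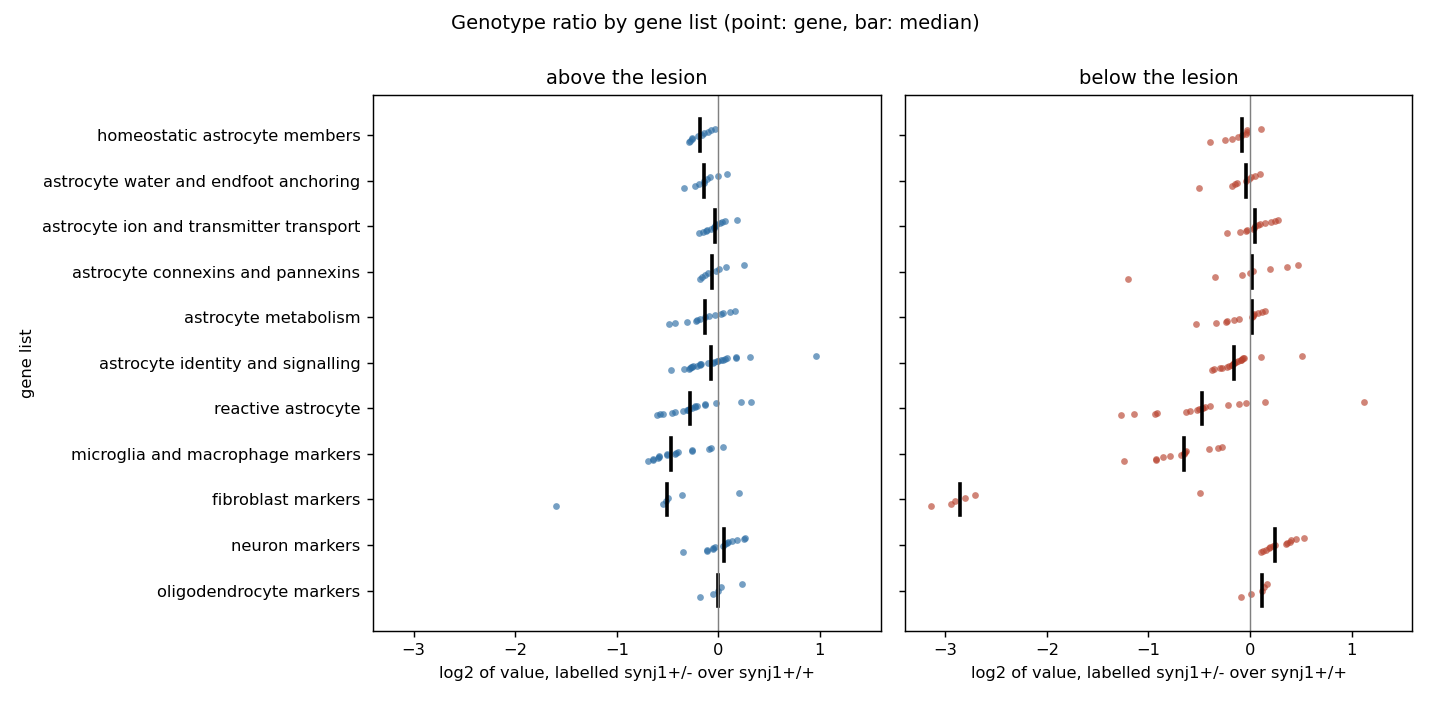
Log2 ratio of the deposited value, the +/- labelled group over the +/+ labelled group (horizontal axis), of each gene (points) in 11 gene lists (vertical axis) above (left) and below (right) the lesion, with black bars at the list medians. The homeostatic members sit at a median of -0.18 above and -0.08 below, between the neuron markers at 0.05 and 0.24 and the microglia and macrophage markers at -0.46 and -0.65.

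Reactive astrocyte genes had lower medians than the homeostatic members at both sites. Their median log2 ratio was -0.28 above the lesion, where 9 of 18 were lower and 1 was higher by the fold of 1.2. It was -0.47 below the lesion, where 12 of 17 were lower and 1 was higher. By any amount, 16 of 18 were lower above the lesion and 15 of 17 below, where 51.0% and 47.2% of all genes were. Of all genes, 10.5% were lower and 6.63% higher by that fold above the lesion, and 14.9% and 12.6% below. The median over all genes was -0.0039 above and 0.0144 below. GFAP, named after its values were seen, was 12970 and 10580 above and 11120 and 8485 below, with log2 ratios of -0.29 and -0.39, close to those of AQP4. SERPINA3N, a protease inhibitor of reactive astrocytes, had values of 973 and 638 above the lesion, and TIMP1, a metalloproteinase inhibitor, had values of 45.2 and 18.7 below it. LCN2, lipocalin 2, was higher in the +/- labelled group below the lesion, at 21.3 and 46.4. A gene that marks reactive astrocytes can be made by other cells at a lesion, and whether the lists differ was not tested.

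Markers of other cell types also differed in value between these groups. Of all genes, 10.5% were lower and 6.63% higher by the fold of 1.2 above the lesion, and 14.9% and 12.6% below. Of 16 microglia and macrophage markers above the lesion, 11 were lower by the fold of 1.2 in the +/- labelled group, and their summed level was 3101 in the +/+ labelled group and 2151 in the +/- labelled group. By any amount, 15 of these 16 were lower above the lesion, where 51.0% of all genes were. Below the lesion all 13 listed were lower by the fold of 1.2, with sums of 4286 and 2499. LYZ2, lysozyme, had the lowest ratio at both sites, at 381 and 235 above and 1101 and 465 below. Fibroblast markers had summed levels of 41.5 and 33.0 above the lesion and 374 and 60.8 below it, with 5 of 6 and 6 of 6 lower, COL3A1 of fibrillar collagen being the lowest below at 69.9 and 7.91. Of 14 neuron markers above the lesion, 0 were higher and 1 was lower by that fold. Any lower value was held by 6 of them, where 51.0% of all genes had one. These counts were near the shares of all genes, so nothing is read from them. The sums of the neuron markers there were 10780 and 12080. SNAP25, a synaptic gene named after its values were seen, made up 5239 and 6248 of these. Of 13 neuron markers below the lesion 6 were higher and 0 lower by that fold, with sums of 9296 and 11720. SYT1, a synaptic vesicle gene, had the highest ratio of these below, at 332 and 481. Genes may not be on one scale, and each sum is weighted to its genes of high value, so it is no measure of a cell type. In these lists, 0 markers were at the lowest possible value. APOE, which astrocytes and microglia make and which is a human allele in these mice while reads were aligned to the mouse genome, had values of 767 and 549 above the lesion and 477 and 564 below. The part of these other cells in the lower values of the members was not tested.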

How the data were processed

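Libraries of spinal cord segments were made with a TruSeq RNA v2 kit, per the labels. The authors thinned the reads of each site at random to the smallest library, aligned them with STAR 2.5.4b, and ran Cuffdiff 1.3.0 with upper quartile normalization, and the submitters' processing notes name GRCm38.p6. The deposited table gives each gene 1 score per group, an expression value combining 3 libraries, together with the authors' fold changes, p-values and q-values, which were not used, and a shorter file holds p-values and log2 fold changes alone. The table lists only genes with a usable test, holds no read totals, and so gives no depth per library. The kit does not keep strand, so antisense reads cannot be told apart.

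The log2 ratio of the values was computed with the offset of 1 kept. A fold of 1.2 was taken as called, the share of all genes past it being the background, and no test was run. For 3 symbols with more than 1 row the higher row was kept, 0 of them members. Gene lists, 17 in number with the members, SYNJ1 and APOE, and the members were chosen with earlier results of these data known. Genes named are the members, their partners, SYNJ1, APOE, and up to 3 genes per list and site past the fold with a level of at least 1, except for a gene that is not reported here. The counting of calls was tested on simulated data whose planted shifts lay past the fold of 1.2. It checked the code and says nothing of calls near that fold. Python 3.11.15, numpy 2.4.6, pandas 2.3.3 and matplotlib 3.10.9 were used.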

Additional observations from a re-analysis of the deposited data

How the results depend on the processing

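All 19 member log2 ratios kept their sign when columns were scaled to the same sum. They also did so when centred on the median of all genes or of genes with a level of at least 10. Each of these settings shifts all ratios of a site by the same amount. Subtracting the offset cannot change a sign. Summing rows of a symbol cannot change a member, since 0 members had more than 1 row. No member ratio shifted by more than 0.03 under any of these settings. Counts near the fold of 1.2 moved. Members lower above the lesion numbered 4 when centred on genes with a level of at least 10 (10.7% of all genes), since KCNJ10 and ALDH1L1 then passed, 3 with the offset subtracted (11.9%), 7 at a fold of 1.1 (23.0%) and 0 at a fold of 1.5 (1.93%). Below the lesion they numbered 2 with columns scaled to the same sum (17.1% of all genes) or centred on genes with a level of at least 10 (16.6%), since GJA1 then passed, 3 at a fold of 1.1 (26.1%) and 0 at a fold of 1.5 (4.38%). Leaving out each member in turn gave medians from -0.20 to -0.16 above and from -0.10 to -0.06 below. Results without each replicate could not be computed, because the table pools the libraries of a group. No paired analysis was possible because the table holds no column of a single sample.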

Other observations

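Other lists were read in the same way. Of all genes, 10.5% were lower and 6.63% higher by the fold of 1.2 above the lesion, and 14.9% and 12.6% below. Nothing is read from counts near these shares. Of 5 oligodendrocyte markers listed at each site, 0 passed the fold of 1.2, with median log2 ratios of -0.003 above and 0.11 below the lesion. Of 5 oligodendrocyte precursor markers listed at each site, 1 was lower by that fold above the lesion, GPR17 at 67.4 and 49.8, and 1 below, PDGFRA at 69.3 and 56.0. Of 8 endothelial markers, 2 were higher and 1 lower above the lesion, and 1 was lower below it, CDH5 at 16.1 and 10.6. Of the ependymal markers, 1 of 5 was higher and 1 lower above the lesion, and 2 of 4 were higher and 1 lower below it, with TMEM212 at 3.63 and 7.99. Of 8 HOX genes, 3 were higher at each site and 0 lower, with HOXA9 at 36.5 and 50.6 above and 66.0 and 92.0 below. In each pair the group labelled synj1+/+ comes first. These are pooled values without an error.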
